A study of Mus musculus with 2 samples.

Results

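DNA replication and the supply of deoxynucleotides were followed through 39 genes, chosen by name for the roles of their products, of 21935 gene symbols measured. Each gene was read by its symbol, and where a symbol had several transcript entries, as for 11 of the 39 genes, the one with the highest mean RPKM stands for the gene. RPKM is the number of reads on a transcript, scaled by its length and by the depth of the library. RNA-Seq was performed on R1 ES cells, a line of mouse embryonic stem cells grown with LIF on irradiated mouse embryonic fibroblasts and then kept for 72 h without LIF, a cytokine that keeps such cells self-renewing. In shKdm5b ES cells a short hairpin RNA brought in by a lentivirus lowers the transcript of *Kdm5b*, which encodes a demethylase of lysine 4 of histone H3. The control, shLuc ES cells, carries a hairpin against luciferase in the same way, and both kinds of cells had been selected for stable infection with puromycin. Polyadenylated RNA of 1 library per condition was sequenced, so the differences below have no replicate check, and an effect of the condition and one of the library cannot be told apart.

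Replication begins when the origin recognition complex (ORC) marks an origin and CDC6 and CDT1 load the MCM helicase around the DNA, a step that geminin blocks by holding CDT1. In S phase the helicase is completed by CDC45 and the GINS complex, polymerase alpha with its primase starts each new strand, and polymerases delta and epsilon extend it with the sliding clamp PCNA. The genes of this machinery are classical targets of E2F transcription factors, and ES cells, which cycle rapidly with a short G1 phase, hold their transcripts at high levels.

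The shLuc library held 78172698 aligned reads and the shKdm5b library 72702698. *Kdm5b*, which checks the labels, was at 104 RPKM in shLuc cells and 3.01 RPKM in shKdm5b cells, 2.88% of the control. All 12 ES cell marker genes were above 1 RPKM in at least 1 library, and their summed level was 3219 RPKM in shLuc cells and 3308 RPKM in shKdm5b cells, but this sum rests on *Dppa5a* (1096 and 1651 RPKM, log2 ratio 0.59). Without it the other 11 marker genes summed to 2123 and 1657 RPKM, and *Pou5f1* (-1.76) and *Esrrb* (-0.96) were more than 1.5-fold lower. Of 14 fibroblast markers with an entry, 1 (*Thy1*) passed 1 RPKM, and the summed level was 7.01 and 7.24 RPKM. *Postn* and *S100a4* had no read in the shKdm5b library and only 3 and 6 reads in the shLuc library. The aligned reads began at 25736755 distinct positions in the shLuc library (32.9% of its reads) and at 14639660 in the other library (20.1%), a difference whose part in the results was not tested.

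All 39 genes were above 1 RPKM in both libraries. Together they took 0.559% of the aligned reads of shLuc cells and 0.392% of those of shKdm5b cells, and their summed level was 2161 and 1695 RPKM. The 6 MCM helicase genes carried most of this difference: the other 33 genes summed to 1397 and 1305 RPKM, 93.4% of the control. That sum includes the rise of *Pcna* from 163 RPKM in shLuc cells to 261 RPKM in shKdm5b cells. The median log2 ratio of shKdm5b to shLuc over these 33 genes was -0.44. In bulk RNA, fewer cells in a phase of the cell cycle and less RNA per cell cannot be told apart. A gene was counted as higher or lower when its RPKM (with 0.1 added) differed by more than 1.5-fold between the libraries, that is, by more than 0.585 on the log2 scale. By this rule 16 genes (41.0%) were lower in the shKdm5b library, 6 (15.4%) were higher and 17 lay within 1.5-fold. Of 11804 genes with an RPKM above 1 in at least 1 library, 32.0% were lower and 16.3% were higher. The share of higher replication genes was thus near that of all genes, and the share of lower ones was above it. The split depends on the scaling: 8 replication genes were higher and 12 lower after TMM scaling of the libraries, beside 24.1% and 23.2% of all genes. The median log2 ratio of shKdm5b to shLuc was -0.49 over the 39 genes and -0.21 over all genes above 1 RPKM. Levels were high for both libraries: the median of the 39 genes was 37.3 RPKM in shLuc and 35.1 RPKM in shKdm5b cells, against 8.97 and 7.33 RPKM for all genes above 1 RPKM. Single log2 ratios ranged from -1.93 (*Pold1*) to 0.96 (*Orc4*).

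With at least 973 reads for each of the 39 genes in each library, counting error was small beside most of these differences. The 95% counting interval of the log2 ratio, from the exact Clopper-Pearson method, lay below 0 for 27 genes, above 0 for 10 and held 0 for 2. The ratio itself was negative for 29 of the 39 genes and for 7130 of 11804 genes above 1 RPKM. Its sign depends on the scaling: *Mcm4* and *Rrm2*, with intervals below 0, were at 0.08 and 0.19 after TMM scaling. The intervals cover counting error only, not the spread between cultures, and reads copied by PCR are not independent molecules.

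**Figure D1:**
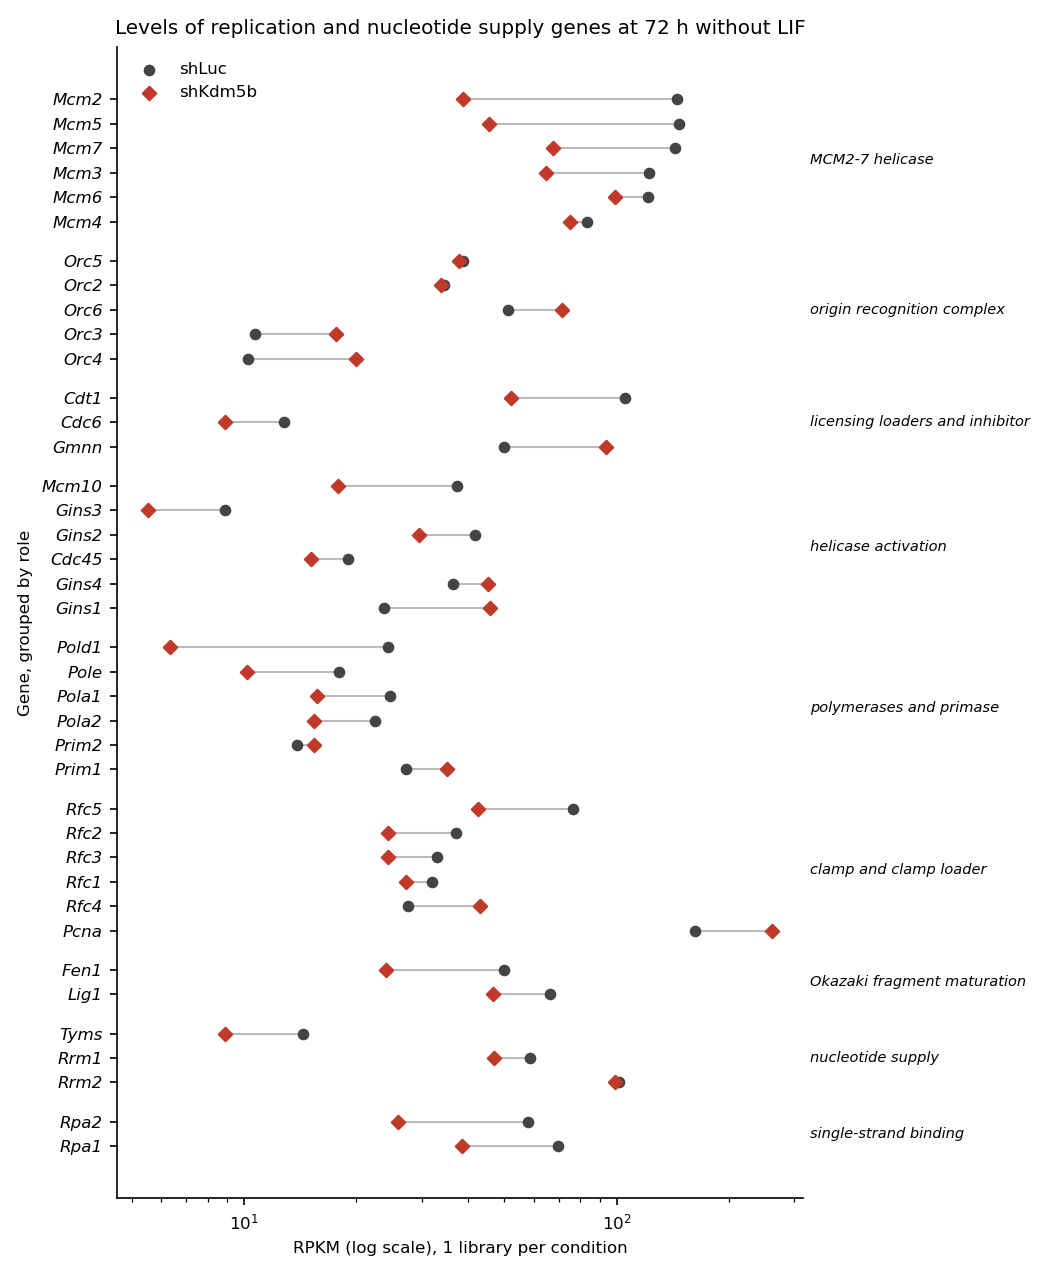
RPKM (log axis) of the 39 genes, grouped by role, in the shLuc library (grey circles) and the shKdm5b library (red diamonds), with 1 library per condition and a line joining the values of a gene. The shKdm5b value lies to the left for *Mcm2*, *Mcm3*, *Mcm5* and *Mcm7* of the MCM helicase and to the right for *Pcna*, the gene with the highest level in both libraries.

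The transcripts also differed by base composition. Across the 39 genes the log2 ratio ran against the GC content of the transcript, at a Spearman rho of -0.74, and across 11535 genes above 1 RPKM rho was -0.53. Genes are not independent samples, and all these values come from 1 pair of libraries. The 13 replication genes with the lowest GC content (36.8% to 46.0%) held 5 of the 6 higher genes and 1 lower gene, at a median log2 ratio of 0.37. The middle 13 (46.5% to 50.6%) held 1 higher and 6 lower genes, at a median of -0.52. The 13 with the highest GC content (50.7% to 60.7%) held 9 lower genes and 0 higher ones, at a median of -1.05. Higher genes were therefore mostly GC-poor and lower genes mostly GC-rich. The part of GC content in each difference was not tested, and each ratio is given below also after removal of the trend that all expressed genes follow.

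After this GC correction, 11 of the 39 genes (28.2%) were lower and 2 (5.13%, *Gmnn* and *Gins1*) were higher, beside 17.9% and 19.1% of 11642 genes. The median log2 ratio of the replication genes was then -0.29, against -0.02 for all genes. When transcript length was removed along with GC content, 10 genes (25.6%) were lower and 0 were higher, beside 16.0% and 15.8% of 11650 genes. Lower by all 3 calculations were 9 genes: *Mcm2*, *Mcm5*, *Mcm10*, *Gins3*, *Pola1*, *Pold1*, *Rfc5*, *Rpa1* and *Rpa2*. No gene was higher by all 3, and for the 6 higher genes the corrected ratios stand beside the deposited ones below. The share of all genes lower by all 3 was not counted. Of the 9 genes, *Gins3* and *Pola1* came within 1.5-fold when the libraries were scaled to equal medians, by TMM or to the 75th percentile.

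**Figure D2:**
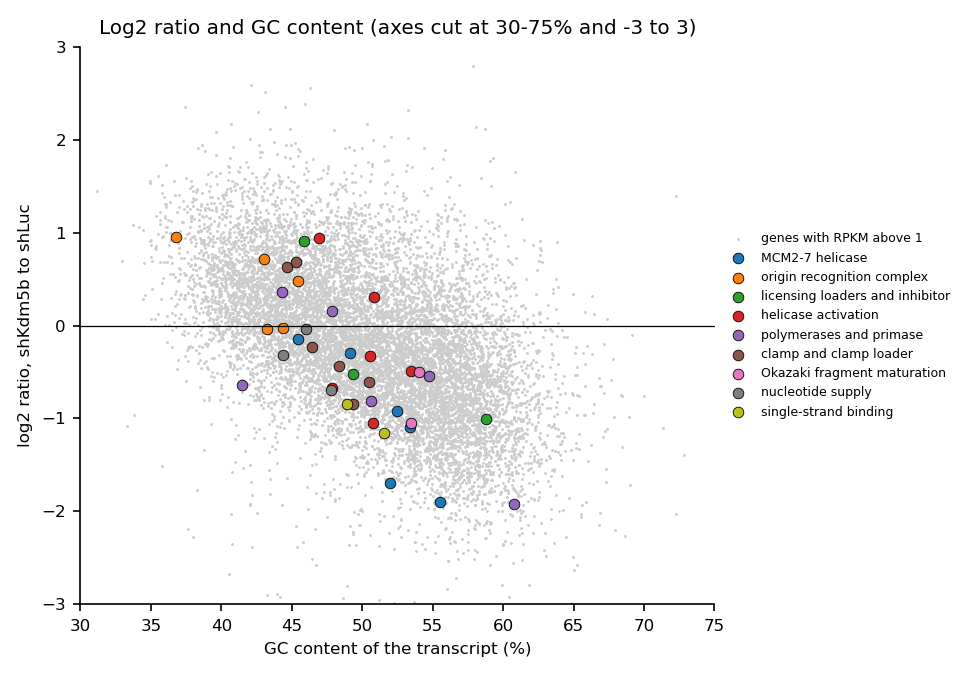
Log2 ratio of shKdm5b to shLuc against the GC content of the transcript (percent) for genes above 1 RPKM (grey dots) and for the 39 replication and nucleotide supply genes, coloured by role. Genes of the origin recognition complex lie between 36.8% and 45.4% GC at ratios from -0.04 to 0.96, and the MCM genes between 45.5% and 55.5% GC at ratios from -1.91 to -0.14.

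The MCM helicase, the ring of 6 related ATPases that unwinds DNA at the fork, was lower in the shKdm5b library as a group but not evenly among its subunits. Its summed level was 763 RPKM in shLuc cells and 390.5 RPKM in shKdm5b cells, 51.2% of the control. *Mcm2* (chr6:88883474-88898780, minus strand, GRCm38) was at 145 RPKM in shLuc cells and 38.7 RPKM in shKdm5b cells, 3.75-fold lower, from 38295 and 9486 reads. *Mcm5* (chr8:75109569-75128439, plus strand) was at 147 RPKM in shLuc cells and 45.4 RPKM in shKdm5b cells, 3.24-fold lower. *Mcm7* was at 143 RPKM in shLuc cells and 67.4 RPKM in shKdm5b cells, 2.13-fold lower. These 3 genes had nearly the same level in the control, and they differed from each other in the shKdm5b library. *Mcm3* stood at 122 RPKM in shLuc cells and 64.6 RPKM in shKdm5b cells, with a log2 ratio of -0.92.

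*Mcm4* and *Mcm6*, which encode catalytic subunits of the same ring, stayed within 1.5-fold. *Mcm4* was at 83.1 and 75.2 RPKM and *Mcm6* at 122 and 99.2 RPKM in the shLuc and shKdm5b libraries, with log2 ratios of -0.14 and -0.30. The products of all 6 genes meet in equal numbers in the loaded ring, and the highest transcript level among them was 1.77 times the lowest in the shLuc library and 2.56 times in the shKdm5b library. *Mcm6* and *Mcm4* were the 2 highest in the shKdm5b library, where *Mcm2* was the lowest. After GC correction the log2 ratios were -1.30 for *Mcm2*, -1.33 for *Mcm5*, -0.62 for *Mcm7*, -0.52 for *Mcm3*, -0.29 for *Mcm4* and -0.16 for *Mcm6*. *Mcm3* then lay within 1.5-fold. With length removed too, *Mcm7*, at -0.58, lay just within it, while *Mcm2* (-1.11) and *Mcm5* (-1.19) stayed outside.

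The promoter of *Mcm5* is shown because it carries the letters of E2F and of NF-Y, factors known for binding upstream of cell cycle genes. Promoter windows ran from 250 bases before to 50 bases after the annotated start (RefSeq, GRCm38.p6), and 31 of the 39 genes had one. The search covered the E2F letters TTTGGCGC, TTTCCCGC, TTTCGCGC and TTTGCCGC, the NF-Y box CCAAT and the cell cycle homology region TTTGAA, on both strands. At chr8:75109259-75109558, plus strand, the window of *Mcm5* reads as follows from 5′ to 3′, with capitals for the matches.
Mcm5: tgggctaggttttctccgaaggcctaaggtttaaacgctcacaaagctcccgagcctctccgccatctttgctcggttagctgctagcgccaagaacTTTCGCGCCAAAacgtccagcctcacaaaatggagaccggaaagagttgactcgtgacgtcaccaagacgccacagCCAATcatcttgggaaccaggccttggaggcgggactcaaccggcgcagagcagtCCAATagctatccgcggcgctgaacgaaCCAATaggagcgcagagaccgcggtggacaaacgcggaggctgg
The long stretch of capitals, TTTCGCGCCAAA, joins 2 E2F matches that overlap on opposite strands, and the 3 short ones are CCAAT boxes. The same overlapping pair occurred in the window of *Mcm6*, whose ratio was -0.30.

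Helicase activation was mixed. *Mcm10*, which encodes a factor that helps the assembled helicase to fire and binds polymerase alpha, was at 37.3 RPKM in shLuc cells and 17.9 RPKM in shKdm5b cells, 2.08-fold lower, with corrected log2 ratios of -0.79 (GC) and -0.66 (GC and length). *Cdc45*, whose product joins the MCM ring in the active helicase, was at 19.0 and 15.2 RPKM, within 1.5-fold. The GINS subunits, which form a complex of 4 different proteins, differed in direction. *Gins1* was at 23.8 RPKM in shLuc cells and 45.7 RPKM in shKdm5b cells, with a log2 ratio of 0.94 and a counting interval of 0.87 to 1.02. *Gins3*, the lowest of the 39 genes in both libraries, was at 8.90 and 5.55 RPKM, with a ratio of -0.67. Neither *Gins2* (41.6 and 29.5 RPKM) nor *Gins4* (36.4 and 45.3 RPKM) passed 1.5-fold, with log2 ratios of -0.49 and 0.31.

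The *Gins1* value depended on the transcript entry. Its longer entry of 1085 bases had 2015 reads in shLuc cells and 3608 in shKdm5b cells, whereas the shorter entry of 642 bases had 981 and 845 reads, a log2 ratio of -0.11. The 2 entries of 1 gene thus gave different answers, and *Gins1* was no longer counted as higher when they were summed. The ratio of the longer entry was 0.91 after GC correction and 0.44, within 1.5-fold, after GC and length correction.

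Genes of the origin recognition complex, which directs the loading of the MCM helicase, were higher or within 1.5-fold. Of the 5 genes in the set, 2 (40.0%) were higher and 0 lower in the shKdm5b library, beside 16.3% and 32.0% of all genes. The summed level of the 5 genes was 145 RPKM in shLuc cells and 180.5 RPKM in shKdm5b cells, 124% of the control. *Orc4* (chr2:48902824-48950277, minus strand, GRCm38) was at 10.3 RPKM in shLuc cells and 20.04 RPKM in shKdm5b cells, from 3236 and 5870 reads, 1.94-fold higher. *Orc3* was at 10.7 and 17.7 RPKM, 1.65-fold higher. These 2 genes had the lowest levels of the complex in both libraries, and with 36.8% and 43.0% GC they were also its poorest in GC. *Orc6* was at 51.1 and 71.2 RPKM, with a log2 ratio of 0.48. *Orc2* (34.5 and 33.8 RPKM) and *Orc5* (38.7 and 37.7 RPKM) had ratios of -0.03 and -0.04, and both counting intervals held 0. The other, shorter entry of *Orc2* (37.9 and 29.5 RPKM) had a ratio of -0.36. *Orc1*, the subunit outside the set, was at 25.1 and 21.01 RPKM, with a ratio of -0.26. After GC correction the ratio of *Orc4* was 0.30 and that of *Orc3* 0.41, and no gene of the complex in the set passed 1.5-fold. With length removed too, *Orc4* was at 0.35 and *Orc3* at 0.58, the latter just within 1.5-fold.

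The first listed promoter of *Orc4*, the gene with the largest positive ratio, is shown for comparison with that of *Mcm5*. It lies at chr2:48950032-48950331 on the minus strand and holds no match to any of the letters searched, so it has no capitals.
Orc4: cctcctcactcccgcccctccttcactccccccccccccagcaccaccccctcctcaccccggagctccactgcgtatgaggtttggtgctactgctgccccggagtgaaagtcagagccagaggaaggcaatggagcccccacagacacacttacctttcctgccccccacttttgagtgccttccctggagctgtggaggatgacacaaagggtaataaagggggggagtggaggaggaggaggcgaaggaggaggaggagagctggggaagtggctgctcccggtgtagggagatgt
Of its 2 other listed starts, 1 has a single CCAAT box and neither has an E2F match.

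Among the genes that act with ORC in licensing, the loader *Cdt1* and its inhibitor *Gmnn* (geminin) differed in opposite directions. *Cdt1* was at 105 RPKM in shLuc cells and 52.1 RPKM in shKdm5b cells, 2.02-fold lower. *Gmnn* was at 49.95 RPKM in shLuc cells and 93.7 RPKM in shKdm5b cells, 1.87-fold higher. The level of *Cdt1* was above that of *Gmnn* in the shLuc library and below it in the shKdm5b library. *Cdc6*, the other loader, was at 12.9 and 8.92 RPKM, with a ratio of -0.52. *Cdt1* has 58.8% GC and *Gmnn* 45.9%, and the corrected ratios were closer together. They were -0.21 for *Cdt1* and 0.80 for *Gmnn* with GC removed, and -0.15 and 0.23 with length removed too.

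**Figure D3:**
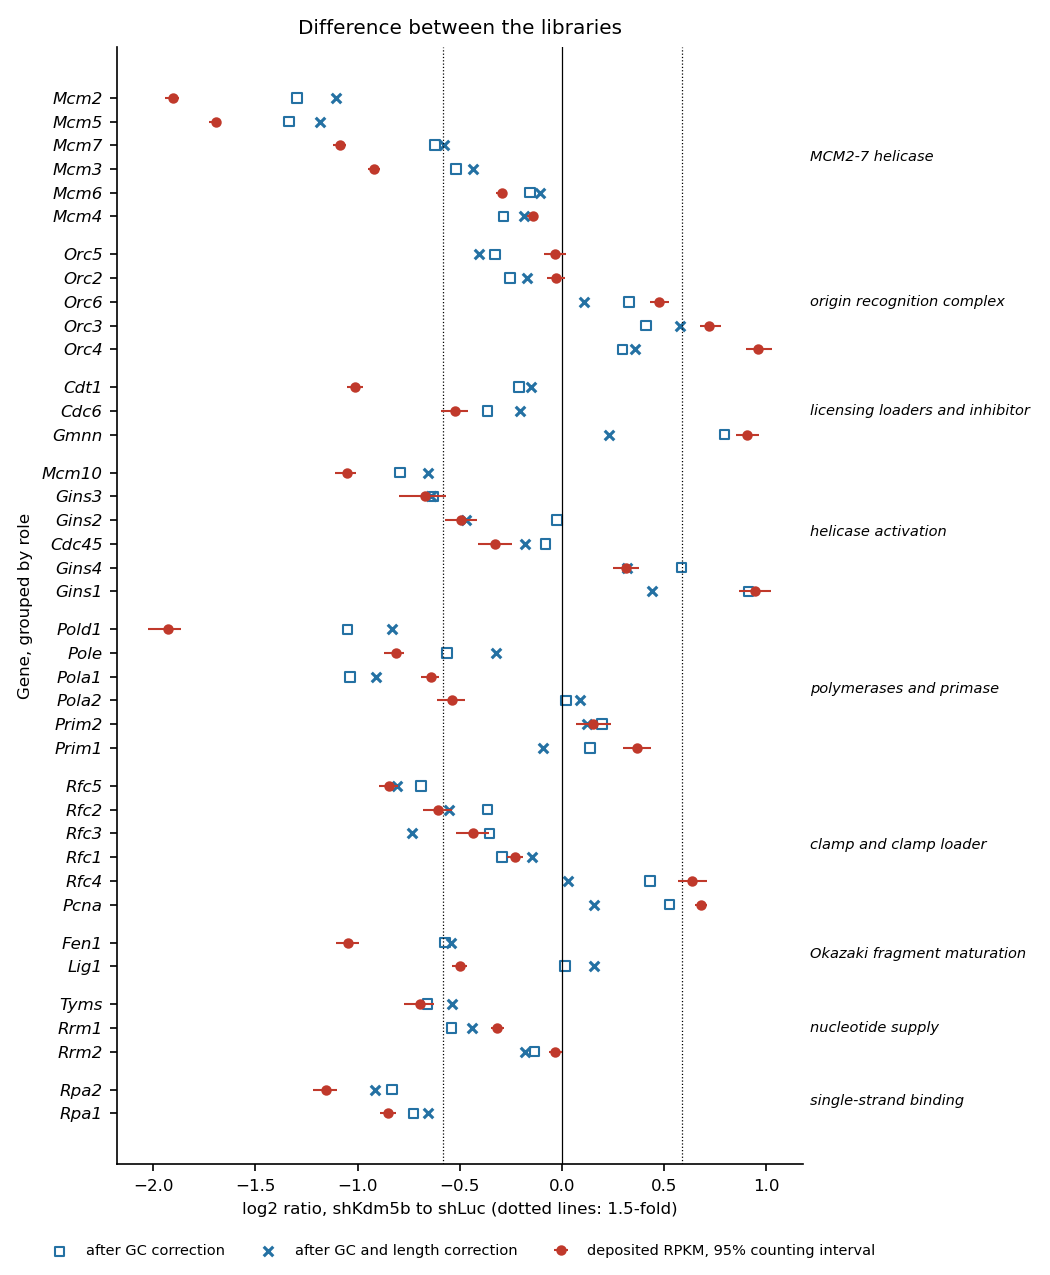
Log2 ratio of shKdm5b to shLuc for each gene from the deposited RPKM (red circles, with 95% counting intervals), after GC correction (blue squares) and after GC and length correction (blue crosses). Dotted lines mark 1.5-fold; 9 genes lie left of the lower line by all 3 values, among them *Mcm2*, *Mcm5* and *Pold1*, and no gene lies right of the upper line by all 3.

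In the polymerases, the genes of the large catalytic subunits were lower and those of the primase were not. *Pold1*, the catalytic subunit of polymerase delta, had the largest negative ratio of the 39 genes. It was at 24.4 RPKM in shLuc cells and 6.33 RPKM in shKdm5b cells, from 6519 and 1576 reads, 3.80-fold lower, with a counting interval of -2.02 to -1.86 on the log2 scale. *Pole*, the catalytic subunit of polymerase epsilon, was at 18.0 and 10.2 RPKM (1.76-fold lower), and *Pola1*, that of polymerase alpha, at 24.6 and 15.7 RPKM (1.56-fold lower). *Pola2*, the accessory subunit of polymerase alpha, was at 22.4 and 15.4 RPKM, with a ratio of -0.54 that was 0.02 after GC correction. Its other entry had a ratio of -0.64 before correction, beyond 1.5-fold. The primase genes *Prim1* (27.2 and 35.1 RPKM in shLuc and shKdm5b cells) and *Prim2* (13.9 and 15.4 RPKM), which make the RNA primers, had ratios of 0.37 and 0.15.

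GC content and ratio did not run together for all of these genes. *Pold1* has the highest GC content of the 39 genes, 60.7%, and its log2 ratio was -1.05 after GC correction and -0.83 with length removed too. *Pola1* has 41.5% GC, in the range where most of the higher genes lay, and its ratio of -0.64 became -1.04 and -0.91. *Pole* became -0.56 and then -0.32, within 1.5-fold. The promoter of *Pold1* at chr7:44548766-44549065, minus strand, is shown as that of the gene with the largest negative ratio, with its 1 E2F match, which reads TTTCCCGC on the opposite strand, in capitals.
Pold1: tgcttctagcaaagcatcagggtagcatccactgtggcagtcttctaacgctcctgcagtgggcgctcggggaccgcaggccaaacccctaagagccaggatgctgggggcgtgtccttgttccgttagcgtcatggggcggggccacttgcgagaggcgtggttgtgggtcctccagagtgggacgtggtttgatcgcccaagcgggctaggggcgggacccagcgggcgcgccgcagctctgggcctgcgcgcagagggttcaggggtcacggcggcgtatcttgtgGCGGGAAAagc

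*Pcna*, the sliding clamp, had the highest RPKM of the 39 genes in both libraries and was higher in the shKdm5b library. It was at 163 RPKM in shLuc cells and 261 RPKM in shKdm5b cells, from 16025 and 23893 reads, with a log2 ratio of 0.68. Replication factor C, the loader that opens this clamp, was mixed among its 5 subunits. *Rfc5* was at 76.6 and 42.5 RPKM (1.80-fold lower) and *Rfc2* at 37.1 and 24.3 RPKM (1.52-fold lower), whereas *Rfc4* was at 27.6 and 42.95 RPKM (1.55-fold higher). *Rfc1*, the large subunit, and *Rfc3* lay within 1.5-fold, with ratios of -0.23 and -0.44. *Rfc5* had been the highest and *Rfc4* the lowest of the 5 subunits in shLuc cells, and they were the 2 highest in shKdm5b cells. After GC correction *Pcna* was at 0.52 and *Rfc4* at 0.43 on the log2 scale, and with length removed too at 0.15 and 0.03. Only *Rfc5* of the clamp and loader genes was lower by the deposited and both corrected values, at -0.69 and -0.81 after correction. *Rfc3* was lower after GC and length correction alone, at -0.73.

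Both genes of replication protein A in the set, the complex that coats single-stranded DNA, were lower. *Rpa1*, the large subunit, was at 69.6 RPKM in shLuc cells and 38.6 RPKM in shKdm5b cells, 1.80-fold lower. *Rpa2* was at 57.9 and 25.9 RPKM, 2.23-fold lower. Their summed level in the shKdm5b library was 50.6% of the control, and both stayed beyond 1.5-fold after GC correction (-0.73 and -0.83) and after GC and length correction (-0.65 and -0.91). The gene of the smallest subunit, *Rpa3*, differed the other way, at 27.8 RPKM in shLuc cells and 82.9 RPKM in shKdm5b cells, with a log2 ratio of 1.57 that was 1.12 after GC correction and 0.20 with length removed too.

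Okazaki fragments, the short pieces of the lagging strand, are trimmed by the flap nuclease of *Fen1* and joined by the ligase of *Lig1*. *Fen1* was at 49.8 RPKM in shLuc cells and 24.1 RPKM in shKdm5b cells, 2.06-fold lower, and *Lig1* at 66.2 and 46.7 RPKM, with a ratio of -0.50. The 2 genes have 53.5% and 54.0% GC. After GC correction *Fen1* was at -0.57, just within 1.5-fold, and *Lig1* at 0.01.

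Exons of *Fen1* overlap those of other genes over 84.2% of their length, mostly an antisense gene (*Gm10143*). The counting is not stated to use strand, so reads of a gene and of its partner on the other strand cannot be told apart. In all, 11 of the 39 genes had more than 5% of their exon bases overlapped by another gene, *Gins2* (67.3%, by *Gse1*) and *Orc2* (29.8%, by *Nif3l1*) the most after *Fen1*. How reads shared with near-identical copies such as pseudogenes were counted is not stated either. Among the genes beyond 1.5-fold, those overlapped by another gene were *Fen1*, *Mcm7*, *Orc4*, *Rfc2*, *Rfc4* and *Rfc5*.

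Of the 3 nucleotide supply genes of the set, 1 (33.3%) was lower, near the 32.0% of all genes, and 0 were higher. Ribonucleotide reductase makes deoxynucleotides from ribonucleotides, and its subunit genes were at 58.4 and 46.9 RPKM (*Rrm1*) and at 101 and 99.2 RPKM (*Rrm2*) in the shLuc and shKdm5b libraries, both within 1.5-fold. *Tyms*, which encodes the enzyme that makes thymidylate, was at 14.4 and 8.89 RPKM, 1.62-fold lower. Its entry in use is a non-coding accession, and the coding entry gave nearly the same log2 ratio (-0.70 and -0.69). After GC correction *Tyms* was at -0.66, *Rrm1* at -0.54 and *Rrm2* at -0.14. With length removed too, *Tyms*, at -0.54, lay within 1.5-fold.

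Other genes of the fork and of nucleotide synthesis were counted from lists beside the set. Of 38 other replication fork genes with an entry, 10 were lower and 5 higher, at a median log2 ratio of -0.25. The lowest were *Chtf8* (58.7 and 15.0 RPKM, -1.96) and *Chtf18* (16.1 and 4.60 RPKM, -1.78), which belong to an alternative clamp loader, and the helicase gene *Recql4* (7.39 and 2.23 RPKM, -1.68). The highest after *Rpa3* were *Rnaseh2b*, a subunit of the nuclease that removes RNA from DNA (16.0 and 30.2 RPKM, 0.91), and *Tipin*, a fork protection gene (98.2 and 176 RPKM, 0.84). Their shares, 26.3% lower and 13.2% higher, lay below those of all genes.

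Among nucleotide supply genes beyond the set, the share of lower genes stood above that of all genes. Of 31 other nucleotide supply genes, 14 (45.2%) were lower and 3 (9.68%) higher, at a median of -0.38. *Dhodh* (23.4 and 7.07 RPKM, -1.71) and *Cad* (41.3 and 13.8 RPKM, -1.57) act in the synthesis of pyrimidines, and *Impdh1* (17.1 and 5.44 RPKM, -1.64) in that of guanine nucleotides. The 3 higher genes were *Rrm2b*, an alternative small subunit of ribonucleotide reductase (1.48 and 2.53 RPKM, 0.74), *Paics*, a purine enzyme (199 and 314 RPKM, 0.66), and *Cmpk1*, a nucleotide kinase (31.5 and 48.0 RPKM, 0.60). After GC correction 12 of the 31 (38.7%) were lower and 4 (12.9%) higher, beside 17.9% and 19.1% of all genes. After GC and length correction 9 (29.0%) were lower and 3 (9.68%) higher, beside 16.0% and 15.8%.

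Genes that act later in the cell cycle had a different median. Of 33 mitosis genes, 4 (12.1%) were lower and 5 (15.2%) higher in the shKdm5b library, beside 32.0% and 16.3% of all genes, at a median log2 ratio of 0.25. The highest were *Nusap1*, a spindle protein gene (42.5 and 88.9 RPKM, 1.06), *Ect2*, which acts in cytokinesis (39.1 and 77.3 RPKM, 0.98), and the securin gene *Pttg1* (30.7 and 55.5 RPKM, 0.85). *Espl1*, which encodes the separase that securin holds back, was the lowest (28.9 and 9.91 RPKM, -1.53), before *Kif2c*, a motor that shortens microtubules (-0.71), and the checkpoint gene *Bub1b* (-0.61). The median GC content was 47.3% in the mitosis list and 48.9% in the replication set, and after GC correction the medians were 0.14 and -0.29.

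**Figure D4:**
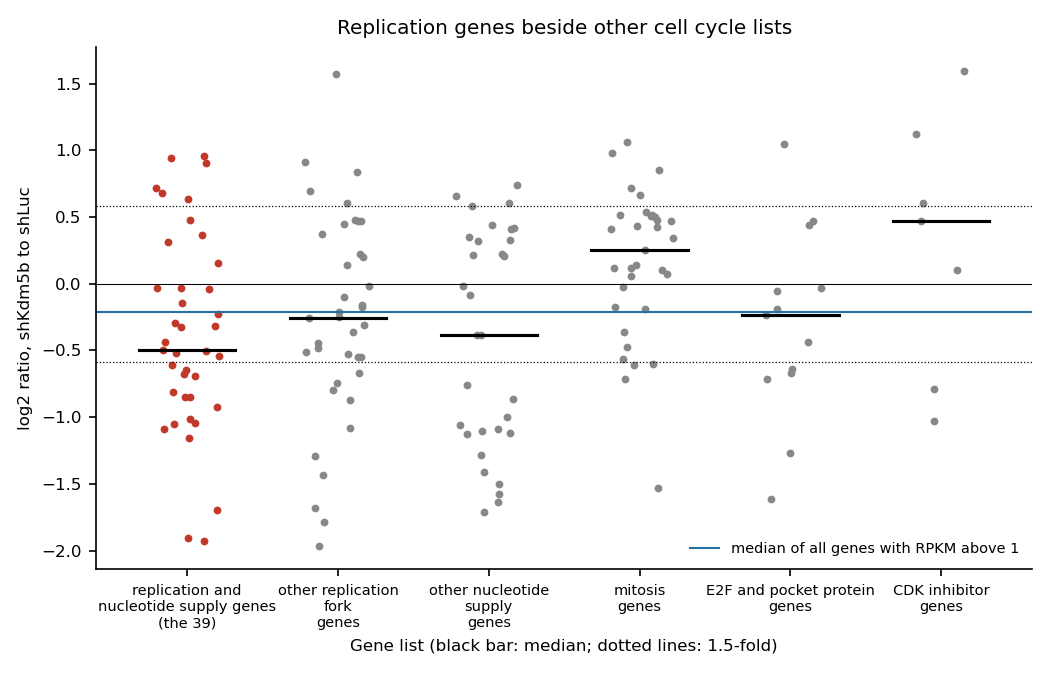
Log2 ratio of shKdm5b to shLuc for each gene of the replication and nucleotide supply set (red) and of 5 other lists (grey), with black bars for list medians, a blue line for the median of all genes above 1 RPKM and dotted lines at 1.5-fold. The replication set has a median of -0.49 and the mitosis genes one of 0.25.

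The genes that control entry into S phase were read beside these. Of 13 E2F and pocket protein genes, 5 (38.5%) were lower and 1 (7.69%) higher, beside 32.0% and 16.3% of all genes. Their median log2 ratio, -0.23, was near the -0.21 of all genes. The activators *E2f1* (23.0 and 9.51 RPKM) and *E2f2* (3.43 and 1.05 RPKM) had ratios of -1.27 and -1.61. *E2f3*, also an activator (12.3 and 10.5 RPKM), lay within 1.5-fold, at -0.23. *Tfdp1*, the dimer partner of the E2F proteins (69.7 and 42.5 RPKM), *E2f4* (118 and 74.2 RPKM) and *E2f8* (23.6 and 15.1 RPKM) had ratios of -0.71, -0.67 and -0.64. *Rb1*, the retinoblastoma gene whose product restrains E2F, was at 6.27 RPKM in shLuc cells and 13.1 RPKM in shKdm5b cells, with a ratio of 1.05. After GC correction *E2f2* (-0.98) and *Rb1* (0.64) remained beyond 1.5-fold. *E2f1* (-0.52), *Tfdp1* (-0.47), *E2f8* (-0.42) and *E2f4* (-0.02) did not. Thus 1 of the 13 genes (7.69%) was lower and 1 (7.69%) higher after this correction, beside 17.9% and 19.1% of all genes. With length removed too, *Tfdp1* (-0.59) was again beyond 1.5-fold.

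CDK inhibitors, which hold back the kinases that drive the cycle, comprised 7 genes. Of these, 3 (42.9%) were higher and 2 (28.6%) lower, beside 16.3% and 32.0% of all genes. The share of lower genes was thus near that of all genes. After GC correction 4 (57.1%) were higher and 0 lower, beside 19.1% and 17.9%. The 4 included *Cdkn1c* (35.3 and 48.9 RPKM), whose ratio of 0.47 became 1.30, and 1.31 with length removed too. *Cdkn1a*, the gene of p21, was at 16.4 RPKM in shLuc cells and 36.0 RPKM in shKdm5b cells, from 2452 and 4995 reads, with a log2 ratio of 1.13 that was 1.68 after either correction. *Cdkn2c* (1.60) and *Cdkn2b* (0.61) were also higher, but *Cdkn2c* had only 34 and 112 reads. *Cdkn2a* (7.97 and 3.86 RPKM) and *Cdkn2d* (4.62 and 2.63 RPKM) were lower, with ratios of -1.03 and -0.79, and both lay within 1.5-fold after GC correction, though *Cdkn2a* was again beyond it (-0.66) with length removed too.

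The promoter windows shown above were compared with those of all genes. E2F letters occurred in 12 of the 31 replication genes with a window (38.7%), against 704 of 27025 genes (2.61%) and 417 of 8213 genes above 1 RPKM (5.08%). The 12 genes were *Mcm3*, *Mcm5*, *Mcm6*, *Mcm7*, *Orc3*, *Cdc6*, *Cdt1*, *Gins3*, *Pola1*, *Pold1*, *Rfc3* and *Lig1*. By direction, the letters were found in 7 of 14 lower genes, in 1 of 4 higher genes (*Orc3*) and in 4 of 13 genes within 1.5-fold. CCAAT boxes occurred in 20 of the 31 genes (64.5%), in 41.1% of all genes and in 43.8% of those above 1 RPKM. TTTGAA occurred in 4 (12.9%), in 20.2% of all genes and in 13.6% of those above 1 RPKM, so its share was near that of expressed genes. *Mcm2*, *Mcm10*, *Rpa1* and *Rpa2*, which were all more than 1.5-fold lower, held CCAAT boxes and no E2F letters in their windows. *Rfc5*, *Fen1* and *Tyms*, also lower, held neither. By direction, CCAAT boxes were found in 9 of 14 lower genes, 2 of 4 higher genes and 9 of 13 genes within 1.5-fold. A match is a run of letters and not a measured binding site. *Mcm4*, *Gmnn*, *Gins1*, *Gins2*, *Gins4*, *Pole*, *Prim2* and *Rfc2* were not searched.

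**Figure D5:**
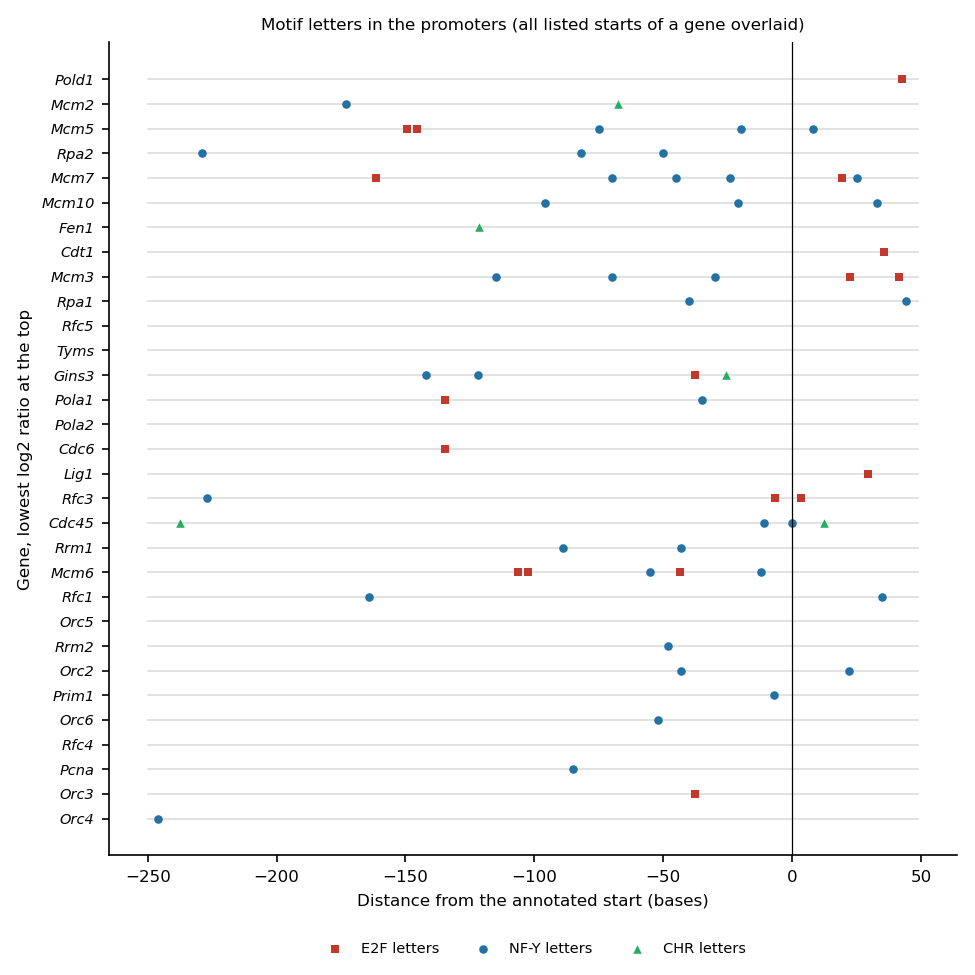
Distance in bases from the annotated start of matches to E2F (red squares), NF-Y (blue circles) and cell cycle homology region (green triangles) letters in 31 promoters, ordered from the lowest log2 ratio at the top to the highest at the bottom. E2F letters appear in 12 promoters, and those of *Orc3* are the only ones among the 4 higher genes with a window.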

How the data were processed

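Polyadenylated RNA from shLuc and shKdm5b R1 ES cells at 72 h without LIF was sequenced with reads of 50 bases. Per the submitters' processing notes, CASAVA 1.0 and Bowtie 0.12.7 were used with mm8. The counting program is not given in the sources used here. For 27405 RefSeq entries the authors deposited a whole-number read count and the RPKM computed from it, the transcript length and the library total. The aligned reads differed from these totals by at most 2 reads. A further column of unstated meaning was not used.

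The genes and lists were chosen with earlier results of these data known. All 39 genes are named. From each other cell cycle or nucleotide list, the 3 largest differences in each direction beyond 1.5-fold are named. The E2F, pocket protein and CDK inhibitor genes past 1.5-fold are named too. *Orc1*, *E2f3* and *Cdkn1c* were named after their values were seen, and the sums without the MCM genes or *Dppa5a* were added likewise. Log2 ratios used RPKM + 0.1, a scale that understates differences of genes near 0. GC content and positions came from GENCODE M21 (GRCm38) and matched 97.7% of genes, so they describe the genes and not the alignment. GC content, alone or with length, was removed by lowess (fraction 0.3, statsmodels 0.14.6) over genes above 1 RPKM. Steps were tested on simulated data. At these depths 3 reads on 1 kb are 0.0384 RPKM (shLuc) and 0.0413 RPKM (shKdm5b), and the median gene above 1 RPKM had 1859 and 1511 reads. Alternatives were other pseudocounts, scalings, entries, RPKM and fold thresholds, and the exact test of edgeR 4.0.16 (R 4.3.3) at assumed dispersions of 0 and 0.04, with an FDR below 0.001, since the study names edgeR. Other steps used SciPy 1.17.1, NumPy 2.4.6 and pandas 2.3.3 (Python 3.11.15).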

Additional observations from a re-analysis of the deposited data

How the results depend on the processing

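Of the 22 genes beyond 1.5-fold, 18 kept that call after scaling to equal medians, 18 after TMM scaling, 19 after scaling to the 75th percentile, 13 after GC correction and 9 after GC and length correction. The median of the replication set was -0.33 after scaling to equal medians (genes above 1 RPKM in both libraries had a median of -0.17), -0.27 after TMM scaling, -0.39 after scaling to the 75th percentile, -0.29 after GC correction and -0.21 after GC and length correction. Scaling to equal medians gave 7 higher and 12 lower genes (22.0% and 25.5% of all genes), and TMM scaling 8 and 12 (24.1% and 23.2%). Under both, *Gins3*, *Pola1*, *Rfc2* and *Tyms* came within 1.5-fold. With a fold above 2 there were 0 higher and 8 lower genes (6.27% and 16.5% of all genes). GC correction left 2 higher genes, and GC and length correction 0 higher and 10 lower; by construction these remove what follows GC content and length across expressed genes. Summing entries gave 5 higher and 17 lower genes (16.1% and 32.3%). Without the 11 genes overlapped by another, an alternative chosen after seeing the data, 4 were higher and 12 lower. The exact test of edgeR, run with TMM scaling, was used only to filter the genes beyond 1.5-fold by deposited RPKM. At a dispersion of 0 it kept 6 higher and 16 lower genes (16.2% and 30.8% of all genes). At 0.04 it kept 0 and 0 of the 39, and 111 and 173 of all genes. This test compares these libraries, not the conditions. No paired analysis was possible because there is a single library of each kind, which also left no replicate to leave out. Read numbers are high for these genes, but reads copied by PCR are not independent molecules. The counting intervals also say nothing about the spread between cultures.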
